A study of Rattus norvegicus with 6 samples.

Results

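The 9 genes described here, Clcn1, Dnm3, Etv4, Mlph, Dusp2, Samd12, Fhl3, Ppp1r14bl and Mmp20, were among those with the largest reductions of RNA in the renal cortex of rats given chlorothalonil, a chlorinated nitrile fungicide, when set against rats given corn oil. They are 9 of the 15645 gene symbols on the array, and 17 of its 61537 probes other than control spots measure a RefSeq transcript of 1 of them. They were chosen by this same contrast, so the differences between the groups are given as descriptions, with no test of them. Male Sprague-Dawley rats of the Crl:CD(SD) stock were 5 weeks old when obtained. The chlorothalonil group was 3 rats given 500 mg/kg/day for 4 weeks, and the corn oil group was 3 rats given the vehicle for 4 weeks. RNA of the renal cortex, the outer kidney with its glomeruli and proximal tubules, was labelled with Cy3 and hybridised to 1-colour Agilent oligonucleotide arrays, 1 array per sample.

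Features of the arrays bear on every value below. All 3 chlorothalonil arrays lay on 1 slide and all 3 corn oil arrays on another, so slide and treatment cannot be told apart. The source name of chlorothalonil replicate 3 states ethylenediamine dihydrochloride, whereas its title, treatment and dose labels state chlorothalonil. Without that array the differences of the 8 genes measured in both groups lay between -1.34 for Dnm3 and -0.85 for Dusp2 on the log2 scale. The share of probes well above background, the scanner software's detection call, was 66.6% to 67.8% on the chlorothalonil arrays and 62.1% to 66.8% on the corn oil arrays, with corn oil replicate 3 the lowest. All 8 listed proximal tubule markers, Slc34a1, Lrp2 and Cubn among them, were detected on every one of the 6 arrays, and 0 passed the threshold between the groups in the limma fit, with 3 at an unadjusted p under 0.05. Over all features measured, 5748 of 29115 came under that unadjusted p, the share beside which such counts of every list stand. In whole tissue, fewer cells of a type and less RNA per cell cannot be told apart.

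The 9 genes do not form 1 pathway. Etv4 is a PEA3 transcription factor of the ETS family that receptor tyrosine kinases induce through the kinase ERK, and Dusp2 is a nuclear phosphatase that switches ERK-type kinases off and is itself induced by their activity. Dnm3 is a dynamin, a GTPase that pinches vesicles from membranes, and Mlph is melanophilin, the adaptor that ties RAB27A on pigment granules to a myosin motor. Clcn1 is the chloride channel that stabilises the resting potential of skeletal muscle fibres, Fhl3 is a LIM-only protein that binds actin and transcription factors and is abundant in that tissue, Ppp1r14bl is named as a relative of the protein phosphatase 1 inhibitor Ppp1r14b, Samd12 carries a sterile alpha motif, and Mmp20 is enamelysin, the protease of forming tooth enamel.

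The processed signal, a brightness with its background subtracted and no scaling between arrays, is given for each array below. Log2 values are relative to the 75th percentile of the same array, which lay between 839.8 and 928.9 on the chlorothalonil arrays and between 898 and 958 on the corn oil arrays. Differences are chlorothalonil minus corn oil on that log2 scale, with the standard error of the limma fit. By their choice all 9 genes passed its Benjamini-Hochberg threshold of 0.05 and all 9 had every chlorothalonil array below every corn oil array, where 3.12% of the 29115 features measured passed it in either direction, 1.82% passed it downward and 14% were separated in that way. Of the 11926 features with a gene symbol, 0.696% passed it downward. Mmp20 was kept through its corn oil arrays only. Its pass and its separation rest on chlorothalonil signals that were not well above background. Among the 12 largest falls of named genes that passed the threshold, did not overlap between the groups and were well above background on all 6 arrays, Clcn1 stood at rank 4 and Samd12 at rank 12. The difference of Samd12, just inside that limit, was -0.93, and those of the next genes that met the same conditions were -0.88 for Pom121l2, -0.85 for Vnn1 and -0.83 for Tgm2. Without these conditions, among all 29115 features ordered from the lowest difference, Clcn1 stood at rank 89 and Samd12 at rank 363.

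**Figure D1:**
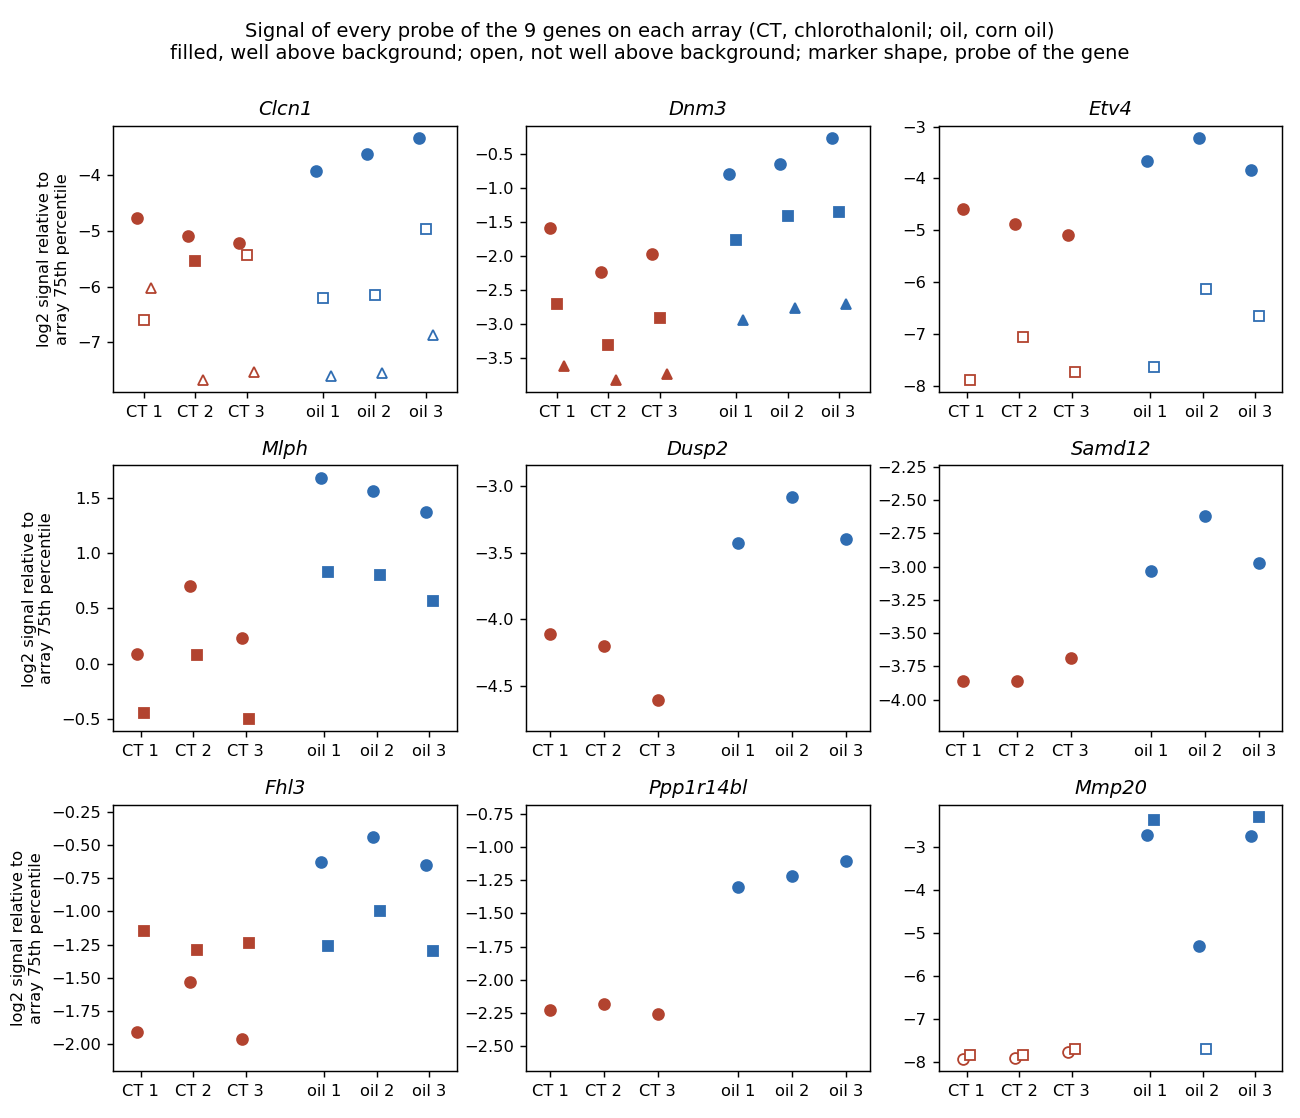
Signal of every probe of the 9 genes on each of the 6 arrays. The y axes give log2 signal relative to the array's 75th percentile, with chlorothalonil arrays (CT, red) left of corn oil arrays (oil, blue), 1 marker shape per probe, and filled markers where the probe was well above background. The 3 Dnm3 probes and both Mlph probes lie lower on every chlorothalonil array, the 2 Fhl3 probes differ from each other, and corn oil replicate 2 is low on both Mmp20 probes.

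Dnm3 was the member with the most probes measured, and all 3 of them were lower with chlorothalonil, to 36.3% to 53.0% of the corn oil level. It is printed with the sequence around its start because no other member had 3 probes that moved together. The sequence is the RefSeq promoter of the GRCr8 assembly, 250 bases before to 50 bases after the gene's start, 5′ to 3′, with the capitals marking a GC box (GGGCGG).
Dnm3 promoter, GRCr8 chr13:77371297-77371596, minus strand: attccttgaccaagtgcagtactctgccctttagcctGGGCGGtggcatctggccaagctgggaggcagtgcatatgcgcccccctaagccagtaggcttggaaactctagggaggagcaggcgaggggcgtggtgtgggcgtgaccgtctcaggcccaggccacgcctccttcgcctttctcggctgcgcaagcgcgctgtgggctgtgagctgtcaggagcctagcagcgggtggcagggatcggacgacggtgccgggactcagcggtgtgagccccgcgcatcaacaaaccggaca
The brightest Dnm3 probe had signals of 295.5, 197.8 and 214.5 with chlorothalonil and 518.6, 608.9 and 772.1 with corn oil. The next probe had 137.7, 93.7 and 112.1 with chlorothalonil and 265.3, 357.4 and 364.6 with corn oil. The dimmest had 73.2, 65.9 and 63.4 with chlorothalonil and 117.2, 141.8 and 142.0 with corn oil. On each probe the groups were apart, and chlorothalonil replicate 1 was the highest of its group every time. The log2 differences were -1.36 (SE 0.21), -1.46 (SE 0.19) and -0.92 (SE 0.09), so the dimmest probe showed the smallest difference. Of the other genes listed as dynamins and endocytic partners, 19 of 21 were measured, and 0 passed the threshold in either direction, also 0 at an unadjusted p under 0.05. Their median difference was 0.06, beside 0.00 over all features, and the smallest p was that of Sh3gl2, an endophilin that bends membrane at endocytic sites, with a difference of 0.43. Sh3gl2 was well above background on only 4 of the 6 arrays, and its groups overlapped.

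Both probes of Mlph were lower with chlorothalonil. The first had 951.5, 1513.9 and 982.0 with chlorothalonil and 2876.0, 2834.4 and 2401.8 with corn oil. The second had 659.9, 981.7 and 594.7 with chlorothalonil and 1596.3, 1670.8 and 1378.0 with corn oil. Chlorothalonil replicate 2 lay nearest to the corn oil arrays on both probes, yet below all 3 of them. The log2 differences were -1.20 (SE 0.18) and -1.02 (SE 0.17), which are folds of 2.29 and 2.03. No listed partner of melanophilin passed the threshold, which 3.12% of all features passed. Of the 16 other genes listed for RAB27, melanophilin and myosin V transport, 14 were measured and 0 passed in either direction, also 0 at an unadjusted p under 0.05, with a median difference of -0.003. Myo5b, a myosin V motor of epithelia, had the smallest p of the list with a difference of 0.14. Rab27a, the GTPase that melanophilin binds, had differences of 0.06 and -0.39 on its 2 probes. The groups overlapped on the first, and on the second every chlorothalonil array lay below every corn oil array.

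Etv4 was dim, and 1 of its 2 probes was measured. That probe had signals of 37.0, 31.5 and 24.7 with chlorothalonil and 70.8, 103.1 and 64.7 with corn oil. All 6 values were well above background and the groups did not overlap, with corn oil replicate 2 the highest. The log2 mean was -4.85 ± 0.25 with chlorothalonil and -3.58 ± 0.32 with corn oil (SD, n = 3 each), a difference of -1.28 (SE 0.20) or a 2.43-fold lower signal. The second Etv4 probe was not well above background on any array, so it gives no second measurement.

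Among 18 other ETS factors listed, 17 were measured, of which 0 were higher and 1 was lower. That gene was Erf, an ETS repressor that ERK removes from the nucleus. Its values were 0.20, 0.18 and 0.18 on the chlorothalonil arrays and 0.55, 0.52 and 0.65 on the corn oil arrays, with no overlap. The difference was -0.39 (SE 0.06), with an adjusted p of 0.0404 in the limma fit, and a second probe kept for the fit had -0.53. Another Erf probe was well above background on 2 of 3 arrays in each group, and its groups overlapped. With any 1 of the 6 arrays left out the adjusted p of Erf lay between 0.10 and 0.132, and with the arrays scaled to their medians it was 0.0597. The closest relatives of Etv4 by family did not pass: Etv5 had a difference of -0.40 (adjusted p = 0.456, limma) and Etv1 one of -0.28 (adjusted p = 0.394, limma). The median over the 17 was 0.01.

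Dusp2 had 1 probe, also dim, with signals of 51.7, 50.6 and 34.3 with chlorothalonil and 83.6, 112.9 and 87.7 with corn oil. Each was well above background and chlorothalonil replicate 3 was the lowest. The difference was -1.002 (SE 0.166), which left 49.9% of the corn oil signal. Other dual-specificity phosphatases of MAP kinases were measured for 6 of 9 listed genes, and 0 passed in either direction, also 0 at an unadjusted p under 0.05, with a median of 0.02. The gene of this list with the smallest p was Dusp6, the cytoplasmic ERK phosphatase. It had log2 values of 4.01, 3.48 and 3.05 with chlorothalonil and 4.07, 4.25 and 3.93 with corn oil, groups that overlap, and a difference of -0.57 (adjusted p = 0.276, limma).

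A wider list of ERK pathway output and feedback genes had 17 of 22 other members measured, and 0 passed in either direction in the limma fit, with 1 at an unadjusted p under 0.05. Of these 17, 13 had a difference below 0 and 4 above, with a median of -0.12 beside 0.00 over all features. Of all 29115 features, 14315 were below 0 and 14794 above, and of the 10 other CLC genes, 8 were below and 2 above. These splits were not tested. Jun, an AP-1 subunit, had the smallest p, with a difference of -0.44 (adjusted p = 0.0850, limma), and passed with normexp (adjusted p = 0.0354) and with trend and robust (adjusted p = 0.0407). A second Jun probe had a difference of -0.235, and its groups overlapped. In the list for RET and FGF receptor signalling, which induces Etv4 in the ureteric tree of the developing kidney, 10 of 13 genes were measured and 0 passed in either direction, with 2 at an unadjusted p under 0.05. Gfra1, the RET co-receptor for GDNF, had the smallest p. Its values were 1.85, 1.01 and 1.66 with chlorothalonil and 2.44, 2.50 and 2.43 with corn oil, and its difference of -0.95 (SE 0.22) had an adjusted p of 0.0886 in the limma fit. Every chlorothalonil array was thus below every corn oil array for Gfra1, as in 14% of all features. A second Gfra1 probe had a difference of -0.84.

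Clcn1 was dim, and 1 of its 3 probes carried the difference. Its promoter holds 1 of the 2 TATA boxes found in the set (TATAAA, in capitals), at position -49 from the gene's start.
Clcn1 promoter, GRCr8 chr4:72138928-72139227, plus strand: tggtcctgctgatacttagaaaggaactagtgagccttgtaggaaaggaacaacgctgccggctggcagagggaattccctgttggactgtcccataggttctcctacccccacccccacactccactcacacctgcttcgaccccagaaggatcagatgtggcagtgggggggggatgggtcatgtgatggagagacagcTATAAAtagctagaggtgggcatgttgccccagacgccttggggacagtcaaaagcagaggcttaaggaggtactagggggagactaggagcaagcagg
The brightest probe had signals of 33.0, 27.2 and 22.7 with chlorothalonil and 59.4, 77.7 and 92.5 with corn oil. All 6 were well above background, and the groups did not overlap. Its mean signal was 27.6 ± 5.14 with chlorothalonil and 76.5 ± 16.6 with corn oil (SD, n = 3 each), and the log2 difference was -1.40 (SE 0.19). A second Clcn1 probe, with 9.2, 19.8 and 19.5 with chlorothalonil and 12.1, 13.5 and 29.6 with corn oil, was well above background on 1 chlorothalonil array and 0 corn oil arrays. The remaining Clcn1 probe was not well above background on any array. On both of these probes the groups overlapped, so the difference of Clcn1 was seen on 1 probe. Of the 10 other CLC channels, exchangers and subunits listed, all 10 were measured, 0 passed in either direction and 0 had an unadjusted p under 0.05. Their median was -0.07, and Clcn6, a late endosomal exchanger, had the smallest p with a difference of -0.16.

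Since Clcn1 is best known from skeletal muscle, the markers of that tissue were read beside it. Of 11 markers listed, 10 were on the array, 3 were well above background on all 6 arrays (Tnnt3, Mb and Tnni2), and Pvalb and Myh1 were not well above background on any. The 10 markers on the array were summed on the linear scale, with the array's 75th percentile as 1. The sum was 1.30 to 1.46 on the chlorothalonil arrays and 1.47 to 1.95 on the corn oil arrays. It includes markers that were not kept for the fit, and the gap, between 1.456 and 1.474, is narrow. Nothing is read from that gap. Of the 6 markers tested, 0 were higher and 2 were lower, with a median difference of -0.02. Of the 4 that did not pass, Ckm had a difference of 0.69, Myh4 of 0.29, Tnni2 of 0.13 and Tnnt3 of -0.17. Acta1, skeletal alpha-actin, had values of -5.27, -5.25 and -6.13 with chlorothalonil and -3.81, -4.04 and -3.96 with corn oil and differed by -1.62 (adjusted p = 0.0362, limma). It was kept through its corn oil arrays and was not well above background on chlorothalonil replicate 3, so the size of the difference is uncertain, and with normexp it was -0.54 (adjusted p = 0.0161, limma). Mb, myoglobin, had values of -1.29, -1.33 and -1.47 with chlorothalonil and -0.86, -0.81 and -0.97 with corn oil, a difference of -0.48 (adjusted p = 0.0424, limma). For both, the chlorothalonil arrays were all below the corn oil arrays. The part of muscle tissue in the values of Clcn1 and Fhl3 was not tested. With 1 array left out in turn, the adjusted p of Mb lay between 0.0846 and 0.127, and that of Acta1 was between 0.0832 and 0.104, except 0.0336 without chlorothalonil replicate 3.

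The 2 probes of Fhl3 disagreed. One had signals of 236.8, 321.6 and 216.0 with chlorothalonil and 581.4, 706.2 and 591.7 with corn oil. The other had 403.0, 379.5 and 356.6 with chlorothalonil and 375.6, 478.4 and 378.4 with corn oil. On the first the groups were far apart, and on the second they overlapped, though both were well above background on all 6 arrays. The first differed by -1.23 (SE 0.14) and the second by -0.04 (SE 0.10). The second turned above 0 in 3 settings: 0.01 with the arrays scaled to their medians, 0.05 without corn oil replicate 2 and 0.11 with scaling to the spike-ins. The choice of the brightest probe per gene put Fhl3 in the set by a narrow margin, since the mean log2 signal over 6 arrays was -1.19 on the first probe and -1.20 on the second. With the mean of both probes the difference of Fhl3 was -0.63. Which transcripts each probe binds was not tested. Of 14 other FHL and LIM genes listed, 11 were measured, of which 0 were lower and 1 was higher. Fhl4, a relative of Fhl3, was well above background on 3 chlorothalonil arrays and 1 corn oil array, with values of -4.75, -4.86 and -4.67 with chlorothalonil and -5.31, -5.40 and -5.53 with corn oil. Its difference was 0.65 (adjusted p = 0.0248, limma). It was kept through its chlorothalonil arrays only, so this difference is against corn oil values mostly not above background, and with normexp it was 0.19 (adjusted p = 0.159, limma). With 1 array left out its adjusted p lay between 0.0493 (corn oil replicate 1 left out) and 0.0967 (chlorothalonil replicate 1 left out).

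Ppp1r14bl had the smallest standard error of the 9 genes. Its single probe had signals of 190.4, 205.6 and 175.5 with chlorothalonil and 365.6, 410.5 and 430.3 with corn oil. The log2 mean was -2.22 ± 0.04 with chlorothalonil and -1.21 ± 0.09 with corn oil (SD, n = 3 each), a difference of -1.01 (SE 0.07). Ppp1r14b, its namesake and an inhibitor of protein phosphatase 1, had differences of -0.20, -0.20 and -0.14 on its 3 probes and did not pass the threshold (adjusted p = 0.234, limma). Whether the Ppp1r14bl probe also takes up Ppp1r14b RNA was not tested. Of 14 other phosphatase inhibitors and myosin phosphatase genes listed, 13 were measured, and 0 passed in either direction in the limma fit, with 3 at an unadjusted p under 0.05 and a median of -0.001. Ppp1r14c, another inhibitor of the same family, had the smallest p with a difference of 0.77 (adjusted p = 0.144, limma). Its other kept probes had differences of 1.04 and 0.95.

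Samd12 had 1 probe, with signals of 61.6, 64.1 and 65.0 with chlorothalonil and 110.3, 155.4 and 118.2 with corn oil. The chlorothalonil arrays were close together and corn oil replicate 2 was the highest of its group. The difference was -0.93 (SE 0.13), a 1.90-fold lower signal. Other genes with a sterile alpha motif were measured for 7 of 11 listed, and 0 passed in either direction, with 2 at an unadjusted p under 0.05 and a median of 0.07. Samhd1, a nucleotide hydrolase, had the smallest p with a difference of 0.49 (adjusted p = 0.0517, limma). It passed in 4 other settings, with adjusted p between 0.0435 and 0.0493.

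Mmp20 was detected with corn oil and on none of the chlorothalonil arrays. Its promoter, from the same RefSeq table, holds the other TATA box (TATAAA), at position -59, and a match to TGANTCA at position -96, both in capitals. TGANTCA is looser than the AP-1 motif, since it takes any middle base, here A, so no AP-1 site is read from it.
Mmp20 promoter, GRCr8 chr8:13074029-13074328, plus strand: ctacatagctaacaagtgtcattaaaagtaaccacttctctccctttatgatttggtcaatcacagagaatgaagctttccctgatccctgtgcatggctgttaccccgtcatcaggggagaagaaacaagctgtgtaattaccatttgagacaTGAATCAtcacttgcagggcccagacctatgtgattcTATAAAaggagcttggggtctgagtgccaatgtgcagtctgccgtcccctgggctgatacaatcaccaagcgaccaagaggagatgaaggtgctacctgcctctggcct
The first probe had signals of 3.7, 3.8 and 3.9 with chlorothalonil, not well above background, and 136.6, 24.2 and 138.7 with corn oil, well above background each time. The second had 3.9, 4.1 and 4.0 with chlorothalonil and 172.9, 4.6 and 186.9 with corn oil, where it was well above background on 2 of 3 arrays. Corn oil replicate 2 was low on both probes, and on the second it was as dim as the chlorothalonil arrays. Because chlorothalonil gave no measured level, only a bound is given: the corn oil mean against, on each chlorothalonil array, the dimmest signal that still counted as well above background. The call differs from spot to spot, so the bound is approximate. On chlorothalonil replicate 3 that dimmest signal was 17.09, yet a Clcn1 probe with 19.5 there was not well above background. By this bound Mmp20 was at least 4.40-fold lower with chlorothalonil on the first probe. The log2 bound was -2.14, which came to -1.05 with the normexp correction. On the second probe the same calculation gave 3.02-fold. Its corn oil mean includes replicate 2, which was not well above background, so this value is not a strict bound. This probe was not kept for the fit because neither group had it detected on 3 arrays. Without corn oil replicate 2 the bound of the first probe was -2.998 on the log2 scale, beside -2.14 with all arrays, and with another array left out it came to -1.70 at the least. Of 24 other matrix metalloproteinases and their inhibitors listed, 15 were measured and 0 passed in either direction in the limma fit, with 3 at an unadjusted p under 0.05 and a median of 0.09. Timp4, a metalloproteinase inhibitor, had the smallest p with a difference of -0.47 (adjusted p = 0.107, limma). None of the 6 listed enamel matrix genes met the detection rule, and 5 of them, Amelx, Ambn, Enam, Amtn and Odam, were not well above background on any array.

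The agreement between probes can be stated for the set as a whole. Of the 17 probes, 13 were kept for the fit and 12 had all chlorothalonil arrays below all corn oil arrays, beside 13% of the 39862 probes kept. This contrast chose the genes, so nothing is read from that count. Dnm3 and Mlph were lower on every one of their probes, with all 6 arrays well above background on each. Fhl3 had 1 probe that was lower and 1 that was not. Clcn1, Etv4, Dusp2, Samd12 and Ppp1r14bl each rest on 1 measured probe.

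Since several of these genes were dim, their differences were set against those of all probes of like brightness and against the spike-ins. Each E1A spike-in is a control transcript with 35 spots per array, and 8 of the 10 were well above background on every spot. The dimmest of these 8, at a brightness close to that of Dusp2 and Samd12, had median signals of 63.4, 74.4 and 67.1 on the chlorothalonil arrays and 90.4, 86.0 and 95.1 on the corn oil arrays. It thus differed by -0.34 with no overlap between the groups, and the other 7 differed by between -0.21 and 0.05. The negative control spots differed by -0.36, with corn oil replicate 3 the brightest at -6.99. The part of this difference between the slides at low signal in the values of the dim genes was not tested. With every array scaled to the 8 spike-ins, an alternative chosen after the data were seen, the median of all features moved to 0.15. Under that scaling the difference of Clcn1 was -1.25, that of Etv4 -1.13, that of Dusp2 -0.86 and that of Samd12 -0.78. The scaling takes 1 value per array from bright and dim spike-ins together and moves every gene alike. It therefore does not take out a difference particular to low signal.

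The spread of all probes widened as signal fell. Between -5 and -4 on the log2 scale, where Clcn1 and Etv4 lie, the median difference over 4656 probes was -0.002 and the 1st percentile was -1.35. There, 0.902% of probes had a difference below that of Clcn1 and 1.31% had one below that of Etv4. Between -4 and -3, 1.24% of 4849 probes lay below Dusp2 and 1.67% below Samd12. Higher up, the shares were smaller: 0.191% of 4711 probes between -2 and -1 lay below the brightest Dnm3 probe, 0.276% below the lower Fhl3 probe and 0.700% below Ppp1r14bl. For the brighter Mlph probe, 0.277% of the 3972 probes between 0 and 1 lay lower. These shares are among all probes of like mean signal, detected or not. Between -5 and -4, 2652 of the 4656 probes had 6 detected arrays, as Clcn1 and Etv4 did. Over those 2652 the median difference was -0.074 and the 1st percentile was -1.156. Between -4 and -3, 4764 of the 4849 probes had 6 detected arrays. Shares among detected probes alone were not computed. This same difference chose the genes, so nothing is read from their shares.

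**Figure D2:**
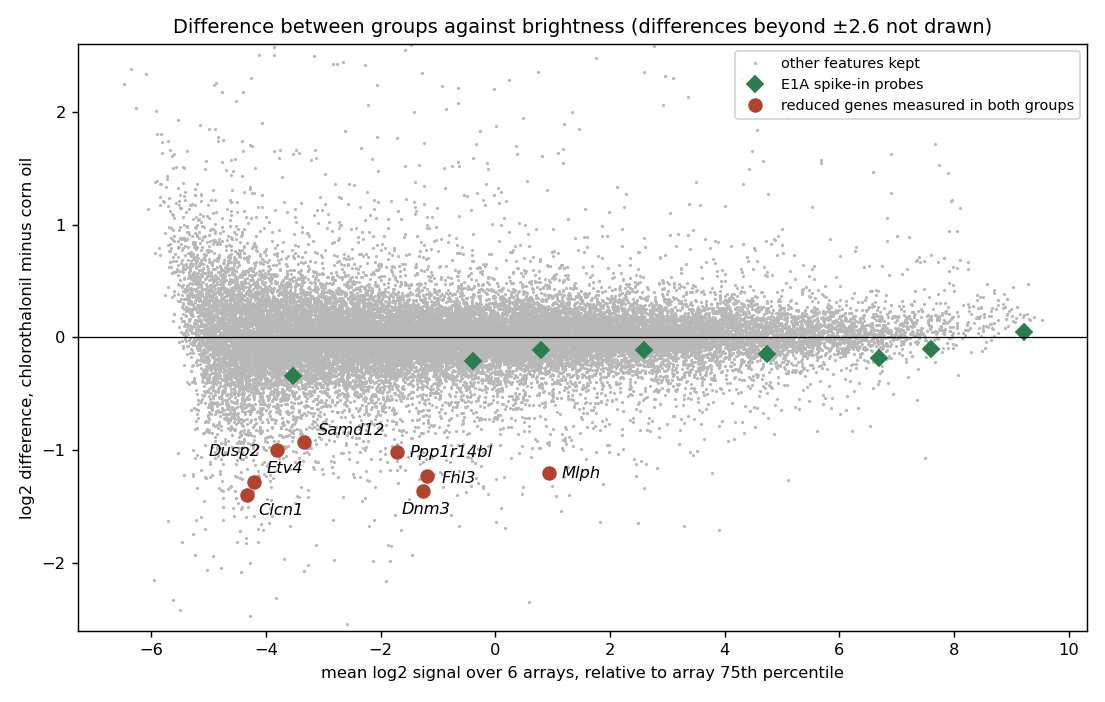
Log2 difference, chlorothalonil minus corn oil (y axis), against the mean log2 signal over 6 arrays relative to the array's 75th percentile (x axis). Gray points are all other features, green diamonds the 8 spike-ins detected on every spot and red points the 8 reduced genes measured in both groups, with 30 features beyond the y axis not drawn and Mmp20 left out because it has only a bound. The dimmest spike-in lies at -0.34, the other 7 between -0.21 and 0.05, and the 8 genes between -1.40 and -0.93.

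The values of the dim members moved most in the normexp setting. That setting starts from the median spot signal, corrects its background another way and adds an offset of 50, and these 3 changes were not separated. With it the difference was -0.63 for Clcn1, -0.62 for Etv4, -0.47 for Dusp2 and -0.48 for Samd12. For Mlph it was -1.03, for Fhl3 -1.07 and for Dnm3 -1.10. Each of the 8 genes measured in both groups was below 0 in all 17 alternatives tried, and so was the bound of Mmp20 in the 16 that allow it. For the 8 genes much of this was fixed by their choice. Every chlorothalonil array lay below every corn oil array, so leaving 1 array out could not turn the sign. Settings that changed only the filter, the outliers, the variance model or the block left each difference as it was. With any 1 array left out, the 8 differences lay between -1.55, for Clcn1 without corn oil replicate 1, and -0.80, for Samd12.

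**Figure D3:**
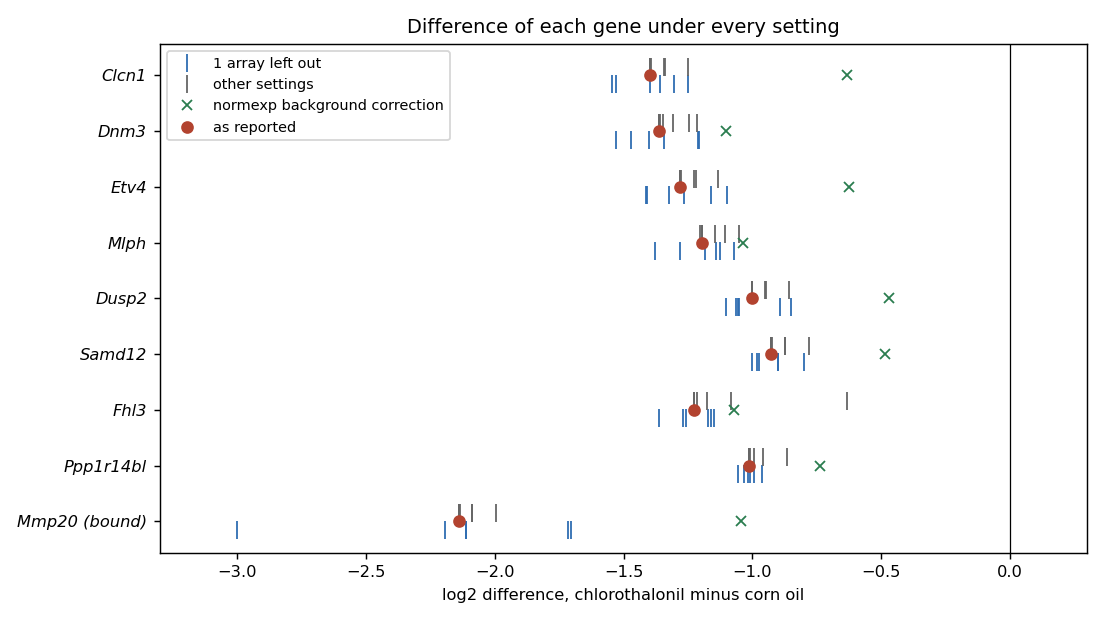
Log2 difference, chlorothalonil minus corn oil (x axis), of each gene (rows) under every setting tried. Red points are the values as reported, blue ticks those with 1 array left out, gray ticks other settings and green crosses the normexp correction, and Mmp20 is drawn as its bound. Every mark lies below 0, which for the blue ticks of the genes measured in both groups follows from their choice. The normexp cross lies closest to 0 for each gene except Fhl3, where the mean of both probes (-0.63) does.

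Across the arrays of a group the genes did not keep 1 order. Of the chlorothalonil arrays, on the log2 scale, replicate 1 was the highest for Clcn1, Dnm3, Etv4 and Dusp2, replicate 2 for Mlph, Fhl3 and Ppp1r14bl, and replicate 3 for Samd12. Of the corn oil arrays, replicate 2 was the highest for Etv4, Dusp2, Samd12 and Fhl3, replicate 3 for Clcn1, Dnm3 and Ppp1r14bl, and replicate 1 for Mlph. Averaged as z-scores over the 9 genes, the arrays stood at -0.78, -0.81 and -1.02 with chlorothalonil and at 0.76, 0.95 and 0.89 with corn oil. The average includes Mmp20, whose chlorothalonil values were not well above background. Among 11902 other named features, the patterns most like this average over the 6 arrays were those of Cxcl11 (Pearson's r = 0.997), Trib1 (r = 0.996) and Rchy1 (r = 0.996). The 6 points share 2 slides, and the likeness is mostly that of the gap between the groups. Cxcl11, an interferon-induced chemokine, had values of -1.18, -1.17 and -1.25 with chlorothalonil and -0.54, -0.55 and -0.51 with corn oil, a difference of -0.67. Trib1, a pseudokinase that steers protein degradation, differed by -0.52, and Rchy1, a ubiquitin ligase, by -0.43.

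Markers of other kidney cells and of cells that could be mixed in were read as well. Podocyte, collecting duct, and loop and distal tubule markers had 5, 5 and 4 genes measured, of which 0 passed in either direction in the limma fit, with 0, 1 and 1 at an unadjusted p under 0.05. The lymphocyte list, read because Dusp2 is known from activated lymphocytes, had 5 of 8 markers measured and 0 past the threshold, also 0 at an unadjusted p under 0.05. Its summed linear level was 1.80 to 2.35 on the chlorothalonil arrays and 1.66 to 2.32 on the corn oil arrays, which overlap. The neuron list, read because Dnm3 is known from brain, had 2 of 6 markers measured and 0 past the threshold, also 0 at an unadjusted p under 0.05, with a summed level of 0.105 to 0.134 on the chlorothalonil arrays and 0.112 to 0.149 on the corn oil arrays, and with Syt1 and Stmn2 not well above background on any array. Over all lists, 171 of 221 genes other than the 9 were measured, of which 1 was higher, 3 were lower and 23 came under an unadjusted p of 0.05. The whole table of 29115 features held 378 that were higher, 531 that were lower and 5748 under that unadjusted p. That balance depends on the scaling, with 435 higher and 368 lower when the arrays were scaled to their medians, and 564 higher and 215 lower when they were scaled to the spike-ins.

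**Figure D4:**
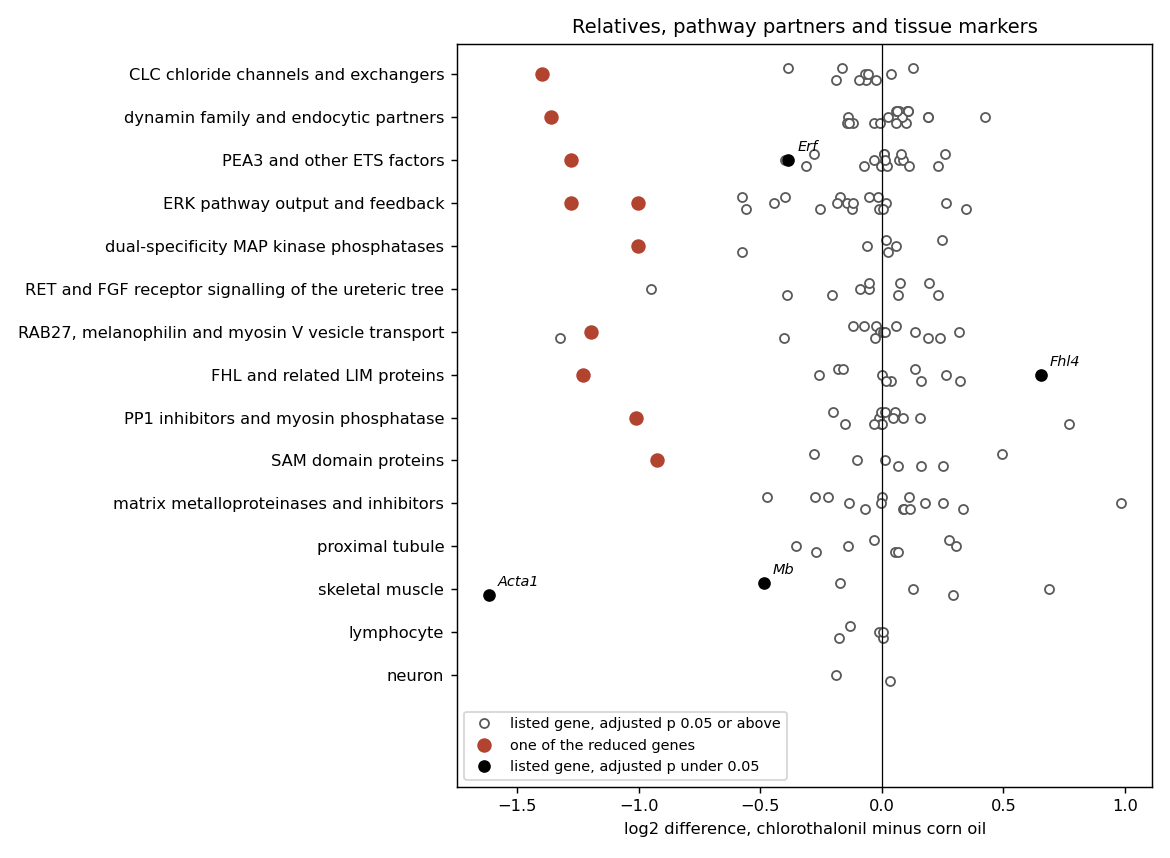
Log2 difference, chlorothalonil minus corn oil (x axis), of the measured genes of 15 lists (rows): relatives and partners of the reduced genes and markers of 4 tissues or cell types. Red points are the reduced genes, open circles listed genes that did not pass the threshold and black points the 4 that did (Erf, Fhl4, Acta1 and Mb). Mmp20 is left out because it has only a bound. The open circles lie on both sides of 0, and the 8 reduced genes drawn lie between -1.40 and -0.93.

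The starts of the genes shared no motif that was searched. RefSeq promoters were found for 5 of the 9 genes, Clcn1, Dnm3, Dusp2, Fhl3 and Mmp20, each 300 bases long, and both strands were searched. GGGCGG was in 3 of the 5 (Dnm3, Dusp2 and Fhl3), beside 33.1% of 33469 rat promoters, and Fhl3 held 6 copies, of which neighbours can overlap. TATAAA was in 2 of the 5, Clcn1 and Mmp20, beside 14.2% of all promoters. TGANTCA was in 1 (Mmp20), beside 7.33%, and CACGTG, an E-box, was in 1 (Dusp2), beside 6.42%. Neither CCGGAA, 1 longer form of the ETS site, in 15% of all promoters, nor TGACNNNGC, the antioxidant response element core, in 12.1%, was in any of the 5 windows. Shorter forms of the ETS site, such as GGAA, were not searched. The GC content of the 5 lay between 47.7% for Mmp20 and 78.0% for Fhl3, with a median of 51.7% over all promoters. A match is a description of letters in these windows and not a binding site.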

How the data were processed

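The 6 arrays of rat renal cortex were used, 3 per group, which the design text of the series names biological replicates. Per the file headers, spot intensity was extracted with Agilent Feature Extraction 10.7.1.1, with the background subtracted and spatial trends removed. That deposited intensity, the processed signal, was the starting point. The authors' deposited value table is a linear ratio, the processed signal over 1 constant per array near its 75th percentile (column medians 0.105 to 0.106 for chlorothalonil and 0.107 to 0.112 for corn oil). No label states that scaling, which was read off by dividing the values, and the table is not centred across arrays.

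Each array held 62976 spots, 0 were saturated and 0 to 9 were left out as outliers. Log2 of the processed signal minus the array's 75th percentile was fitted by lmFit and eBayes of limma 3.58.1 (R 4.3.3) with no covariate, with Benjamini-Hochberg adjustment over all 29115 features. A probe was kept if well above background on all 3 arrays of a group and measured on at least 2 arrays of each, which left 39862 of 61537, and the brightest on average stood for its gene. Accessions were named through a RefSeq gene table of GRCr8, which gave 28206 probes 1 symbol. The headers name an older rat build, so only promoters have coordinates. The fit was tested on simulated data. The number of arrays limits the precision.

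The genes, their lists and the alternatives were chosen with earlier results of these data known. Named beside the 9 genes are, of each list, up to 3 genes past the threshold or else the 1 with the smallest p, the 3 most like patterns and the 3 next falls. Genes named outside that rule (Etv1, Etv5, Rab27a, Ppp1r14b, Calb1, Slc5a2, Slc34a1, other muscle markers and undetected markers) were chosen after their values were seen. A few genes that rank among the falls are not reported here. The alternatives were quantile and median scaling, scaling to spike-ins (added after the data were seen), normexp on the median spot signal, since no mean is given, the deposited table, 2 other filters on dim probes, averaging the probes of a gene, keeping outliers, eBayes with trend and robust, a replicate block and each array left out. A slide block could not be fitted, because each group lies on 1 slide.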

Additional observations from a re-analysis of the deposited data

How the results depend on the processing

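The count of features past the threshold was 909, against 172 with no filter on dim probes, 0 with a replicate block and 127 (without chlorothalonil replicate 1) to 402 (without corn oil replicate 1) with 1 array left out. Leaving out chlorothalonil replicate 2 or 3 gave 141 or 183, and leaving out corn oil replicate 2 or 3 gave 297 or 225. The count of probes was 1064, against 186 with no filter, 17 with the block and 145 to 431 with 1 array left out. That of listed genes was 4, against 0 with no filter, 0 with the block, 2 with scaling to the spike-ins and 0 to 1 with 1 array left out. The block rests on numbers that same-numbered arrays barely shared (r of their deviations 0.095, 0.018 and 0.051), so the numbers were not taken as pairs. Other settings kept these counts within 1.5 times. With fewer arrays the model has fewer degrees of freedom, and with no filter more features are tested. Whether this accounts for the lower counts was not tested. The second Fhl3 probe turned to 0.0126 with median scaling and 0.106 with scaling to the spike-ins, and ran from -0.0953 to 0.0517 with 1 array left out (the highest without corn oil replicate 2), and the cause was not tested. The adjusted p of Erf (limma) was 0.148 with the block, 0.127 with no filter and 0.139 with scaling to the spike-ins, and that of Mb was 0.0791 with median scaling and 0.155 with scaling to the spike-ins. That of Fhl4 was 0.159 with normexp and 0.116 with trend and robust. Genes that passed only elsewhere were Samhd1 (0.0493 with quantile and 0.0463 with median scaling, 0.0483 with normexp, 0.0435 with all 6 arrays detected), Jun (0.0354 with normexp, 0.0407 with trend and robust), Calb1 (0.0283 with normexp), Slc5a2 (0.0454 with quantile scaling) and Slc34a1 (0.0230 with trend and robust). Signal near background limits Clcn1, Etv4, Dusp2, Samd12, Acta1, Fhl4, Sh3gl2 and Mmp20.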
